A study of Mus musculus with 24 samples.

Results

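The Fos and Jun genes encode the subunits of the AP-1 transcription factor. The members were chosen by symbol as Fos, Fosb, Fosl2, Jun, Junb and Jund, which are 6 of the 55414 genes in the count table, and all 6 were among the 14464 genes with enough counts to be tested. AP-1 is a dimer of basic leucine zipper (bZIP) proteins: Fos proteins usually bind DNA together with a Jun protein, whereas Jun proteins can also pair with each other. In neurons, synaptic activity induces Fos, Fosb and Junb within minutes to hours, while Jund is present at rest, and in the visual cortex Fos transcripts are a classic readout of exposure to light after darkness.

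RNA was measured in the primary visual cortex (V1) of male C57BL/6J mice aged 8 to 10 weeks that were kept on a reversed light cycle and used in their dark phase. Mice received an intraperitoneal injection of psilocybin at 5 mg/kg, a psychedelic whose metabolite activates serotonin receptors, or of the vehicle PBS, and then spent 2.5 h in light or in the dark. The 4 groups were dark (PBS, no light), light (PBS and light), psilocybin-dark (psilocybin, no light) and psilocybin-light (psilocybin and light), with 6 libraries each, numbered 1 to 6, 13 to 18, 7 to 12 and 19 to 24. The dark group is therefore an injected control, and none of the 4 groups was left without an injection. The libraries held 13552516 to 17906994 counts each, and the 6 genes had between 138 counts (Fosb, lowest library) and 4314 counts (Junb, highest library).

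The groups follow the headings of the study's own count table. The sample labels name the same drug but the opposite light exposure for all 24 libraries, and which is right was not decided from the measured values. Under the labels the dark libraries described here would be light libraries, and the reverse, within each drug. The values of each library are unaffected, but every difference between light and dark would change sign, and the comparison of psilocybin with PBS in the dark would become that under light.

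Libraries also differed in markers of other brain regions. Summed over 8 cerebellar markers, dark libraries 1 and 6, psilocybin-dark library 12 and light library 18 held 20650 to 71290 normalized counts, against 522 to 2963 in the other 20, where Pcp2 and Gabra6 were at 0 in some libraries. All 8 were lower in psilocybin-light than in dark (median log2 fold change -4.68), where 21.0% of all genes tested were lower. In light and in psilocybin-dark against dark none of the 8 passed. Summed over 9 of the 11 hippocampal markers listed (Lct and Iyd had too few counts to be tested), the 6 dark libraries held 2707 to 7210 and the other 18 libraries 1108 to 1823, without overlap. Of these 9, 5 were lower in light than in dark, 4 in psilocybin-dark and 7 in psilocybin-light, where 16.5%, 12.8% and 21.0% of all genes tested were lower. All 7 markers of cortical glutamatergic neurons were detected in every library, with sums from 12810 in dark library 1 to 40260 in a light library. In each of the other groups 5 of the 7 were higher than in dark, against 15.4% (light), 11.9% (psilocybin-dark) and 17.4% (psilocybin-light) of all genes. Microglial sums ranged from 3052 to 5067 in dark and 4132 to 5675 elsewhere, and 3 of 7 of these markers were higher in light than in dark. Endothelial sums ranged from 2508 to 3000 in dark and 2062 to 4017 elsewhere, and 1 of 6 was higher in light, a share near the 15.4% of all genes. In tissue RNA, fewer cells of a type and less RNA per cell cannot be told apart.

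All 6 genes are protein coding and lie on 5 chromosomes (GRCm39, GENCODE vM39). Fos is at chr12:85520658-85524047 on the plus strand, Fosb at chr7:19036621-19043976 on the minus strand, and Fosl2 at chr5:32292707-32315186 on the plus strand. Jun is at chr4:94937271-94940459 on the minus strand, and Junb (chr8:85701113-85705359, minus) and Jund (chr8:71151599-71153265, plus) share chromosome 8. Jun and Jund have 1 exon each, and 4 of the genes overlap exons of a neighbour on the opposite strand. Fosl2 overlaps Gm72529 over 425 bases, and Jun the antisense RNA Junos over 528 bases. Junb overlaps Prdx2 over 173 bases and Gm65321 over 145 bases, and Jund overlaps Gm11175 over 877 of its 1667 exon bases. The strand setting of the counting is not given in the sources used here, so reads from such pairs cannot be told apart. Counts per gene also do not separate the full-length FosB transcript from the spliced deltaFosB form, a stable truncated protein.

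The promoters of the 4 genes that differed most between groups are shown because cyclic AMP and calcium signals act on early genes through CREB, whose core sequence is TGACG, and the Jun promoter is known for the AP-1 variant TGACATCA. The RefSeq windows span 250 bases before to 50 after the start (GRCm38.p6) and were searched on both strands, with the matches in capitals. Fos (chr12:85473640-85473939, plus) has TGACG at 129 and 66 bases before the start, Fosb (chr7:19309996-19310295, minus) at 60 and Junb (chr8:84978699-84978998, minus) at 106, while Jun (chr4:95052173-95052472, minus) has TGACATCA at 45 bases before the start.
Fos: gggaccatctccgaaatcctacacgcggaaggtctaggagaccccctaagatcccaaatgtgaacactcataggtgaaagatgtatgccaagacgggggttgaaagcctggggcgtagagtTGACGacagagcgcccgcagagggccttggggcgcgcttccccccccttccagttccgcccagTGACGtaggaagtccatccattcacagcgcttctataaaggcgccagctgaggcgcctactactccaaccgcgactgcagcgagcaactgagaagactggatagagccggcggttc
Fosb: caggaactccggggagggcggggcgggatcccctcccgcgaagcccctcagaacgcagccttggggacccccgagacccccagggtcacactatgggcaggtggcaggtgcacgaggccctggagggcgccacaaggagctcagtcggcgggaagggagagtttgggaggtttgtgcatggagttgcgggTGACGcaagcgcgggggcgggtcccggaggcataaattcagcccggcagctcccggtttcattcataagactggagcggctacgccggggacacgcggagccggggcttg
Junb: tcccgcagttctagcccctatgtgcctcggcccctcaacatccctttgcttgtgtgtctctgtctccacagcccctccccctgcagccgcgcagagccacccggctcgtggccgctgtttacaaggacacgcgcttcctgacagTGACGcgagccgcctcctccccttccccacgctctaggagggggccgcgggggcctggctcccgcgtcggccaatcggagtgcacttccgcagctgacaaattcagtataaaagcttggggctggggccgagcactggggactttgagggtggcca
Jun: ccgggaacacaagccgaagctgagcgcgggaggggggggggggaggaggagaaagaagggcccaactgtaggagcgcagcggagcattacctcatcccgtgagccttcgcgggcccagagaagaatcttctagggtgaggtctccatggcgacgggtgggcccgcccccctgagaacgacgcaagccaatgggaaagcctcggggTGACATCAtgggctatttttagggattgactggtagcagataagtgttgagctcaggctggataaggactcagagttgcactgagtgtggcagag

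TGACG is present in 21.0% of the 27025 RefSeq promoter windows of this length and TGACATCA in 3.76%. The AP-1 consensus TGANTCA (7.93% of windows) and the CArG box bound by serum response factor (1.57%) had no match in any of the 6 windows, and the Fosl2 and Jund windows had none of the 4 sequences. A match describes letters and not a bound site.

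Against the dark group, Fos and Fosb were higher and Jun was lower in each of the other 3 groups, while Junb and Jund were higher in both groups placed in light. In light against dark, 5 of the 6 genes passed the test (adjusted p-value under 0.05, edgeR), 4 higher and 1 lower, where 31.9% of all genes tested passed, 15.4% higher and 16.5% lower. In psilocybin-dark against dark, 3 passed, 2 higher and 1 lower, where 24.7% of genes passed, 11.9% higher and 12.8% lower. In psilocybin-light against dark, 5 passed, 4 higher and 1 lower, where 38.4% of genes passed, 17.4% higher and 21.0% lower. These 3 comparisons share the same 6 dark libraries. Among the other groups, Fos and Junb were higher in psilocybin-light than in psilocybin-dark, where 6.38% of genes passed, 2.60% higher and 3.78% lower. None of the 6 passed in psilocybin-light against light, where 88 genes or 0.608% passed (0.0553% higher and 0.553% lower), and by unadjusted p under 0.05 none did either. None passed in psilocybin-dark against light (66 genes or 0.456%, with 0.194% higher and 0.263% lower), where Fos and Junb had unadjusted p-values of 0.0428 and 0.00731. DESeq2 passed the same genes in all of these comparisons. With the hippocampal marker level in the model, no member passed in any comparison against dark, whereas Fos and Junb still passed in psilocybin-light against psilocybin-dark. The fold changes of Fosb against dark were then 1.00 (SE 0.537) in light, 1.13 (SE 0.541) in psilocybin-dark and 0.86 (SE 0.599) in psilocybin-light, and those of Junb 0.98 (SE 0.488) in light and 1.42 (SE 0.544) in psilocybin-light, about as large as without the markers but with larger errors. Those of Fos were smaller, at 0.79 (SE 0.382), 0.30 (SE 0.386) and 1.16 (SE 0.429), and so were those of Jun, given below. The level in the model was the mean log2 value of the markers. In it dark library 6 (2.09) lay below psilocybin-dark library 12 (2.3) and light library 18 (2.13), although the summed markers did not overlap. Since most dark libraries lay above the rest in both measures, hippocampal marker content and the dark group cannot be cleanly told apart.

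**Figure D1:**
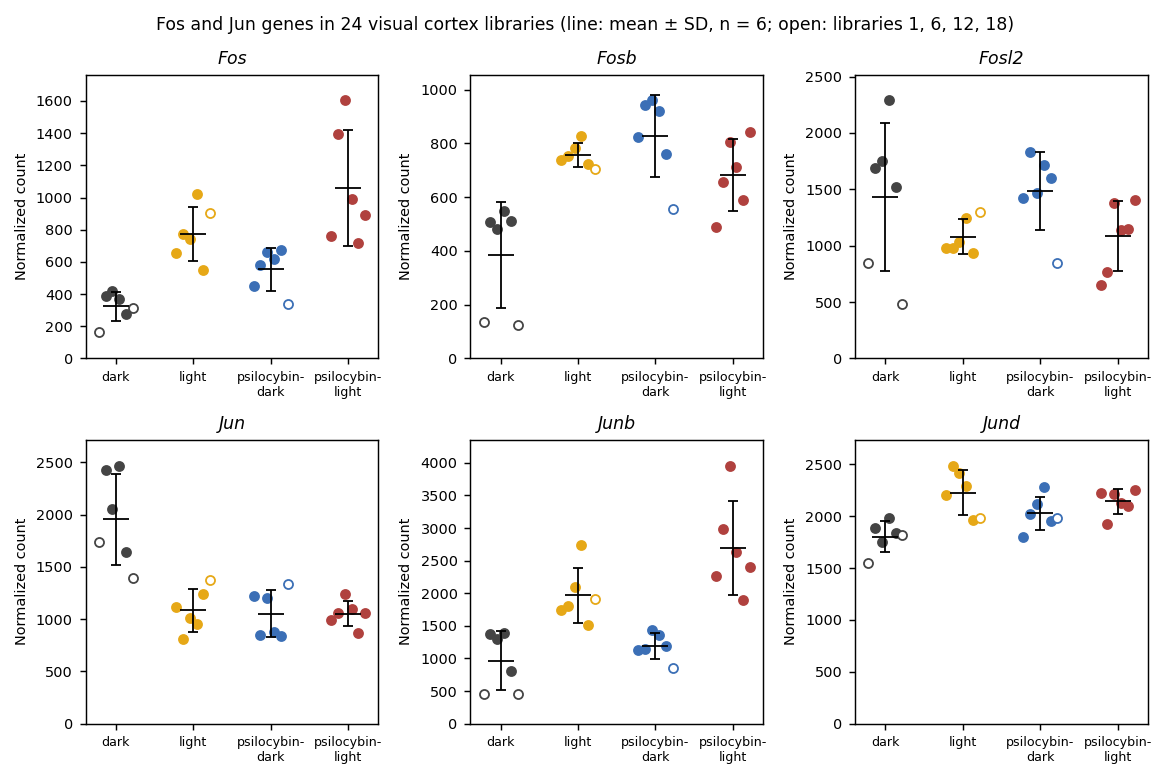
Normalized counts (y axis, linear from 0) of the 6 genes in the 24 libraries by group (x axis). Points are libraries, lines the mean with the SD (n = 6), and open points the 4 libraries with the highest cerebellar marker sums. Jun is highest in all 6 dark libraries, and the 2 open dark points are the lowest for Fosb and Junb.

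Fos, the founding member of the family, was ordered dark, psilocybin-dark, light, psilocybin-light. The dark libraries ranged from 166 to 422 normalized counts with a median of 341 (mean 323 ± 92.8, SD, n = 6), and the light libraries from 548 to 1019 with a median of 758 (mean 773 ± 169). The psilocybin-dark libraries ranged from 339 to 675 with a median of 600 (mean 554 ± 132), and the psilocybin-light libraries from 720 to 1604 with a median of 943 (mean 1061 ± 360.0). Every light and psilocybin-light library lay above every dark library, every psilocybin-light library lay above every psilocybin-dark library, and 5 of 6 psilocybin-dark libraries lay above all dark ones. Such separation was seen for 10.0% of all genes between light and dark, 15.8% between psilocybin-light and dark and 6.42% between the psilocybin groups. The log2 fold change against dark was 1.26 (SE 0.228, edgeR adjusted p = 0.00024) in light, 0.78 (SE 0.228, adjusted p = 0.0148) in psilocybin-dark and 1.72 (SE 0.23, adjusted p = 6.5e-06) in psilocybin-light. Between the psilocybin groups it was 0.94 (SE 0.224, adjusted p = 0.0131).

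No difference between neighbours in the order above the dark group passed the adjusted threshold. Fos was 0.46 log2 higher in psilocybin-light than in light (95% interval -0.001 to 0.915, edgeR adjusted p = 0.518), and 0.48 lower in psilocybin-dark than in light (log2 difference -0.48, 95% interval -0.942 to -0.017, unadjusted p = 0.0428, adjusted p = 0.324). The light effect and the psilocybin effect added up on the log2 scale within their error, the interaction being -0.33 (95% interval -0.98 to 0.33, adjusted p = 0.578). Of the 6 dark values, the lowest was in library 1, which had a high cerebellar marker sum. Without the 4 libraries of high cerebellar markers, an alternative chosen after seeing the data, the fold change in light was 1.04 (edgeR adjusted p = 0.000794).

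Fosb, which encodes FosB and the stable deltaFosB, was ordered dark, psilocybin-light, light, psilocybin-dark. The dark libraries ranged from 126 to 547 with a median of 495 (mean 385 ± 198), and fell into 2 sets: 126 and 134 in libraries 6 and 1, and 481 to 547 in the other 4. The light libraries ranged from 707 to 828 with a median of 746 (mean 756 ± 44.3). The psilocybin-dark libraries ranged from 556 to 961 with a median of 872 (mean 827 ± 154), the lowest being library 12 of high cerebellar markers. The light and psilocybin-dark libraries were all above the dark ones, whereas psilocybin-light, at 490 to 843 with a median of 685 (mean 683 ± 133), overlapped dark in 1 library. Separation of the libraries was seen for 5.58% of all genes between psilocybin-dark and dark. The log2 fold change against dark was 0.98 in light (SE 0.272, edgeR adjusted p = 0.00838), 1.11 in psilocybin-dark (SE 0.272, adjusted p = 0.00476) and 0.83 in psilocybin-light (SE 0.272, adjusted p = 0.0188).

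The size of these Fosb differences rested on dark libraries 1 and 6. Without them the fold changes were 0.57 in light, 0.70 in psilocybin-dark and 0.43 in psilocybin-light, and all 3 passed (edgeR adjusted p = 0.002, 0.000442 and 0.0137). With the cerebellar marker level in the model, the difference in psilocybin-light was 0.46 and did not pass (adjusted p = 0.109). When each test was fitted to its 2 groups alone, none of the 3 passed (adjusted p = 0.0566, 0.0569 and 0.0909). Among the 6 members Fosb had the lowest interaction, at -1.25 (SE 0.381, adjusted p = 0.0429), in a test that 8.75% of all genes passed, 3.89% higher and 4.86% lower. Leaving out 1 library at a time ended that call in 15 of 24 fits (adjusted p up to 0.0722). Without dark libraries 1 and 6 the interaction was -0.84 (edgeR adjusted p = 0.00237). Between psilocybin-light and psilocybin-dark the difference was -0.27 (95% interval -0.83 to 0.28, adjusted p = 0.632), and without the 4 libraries of high cerebellar markers it was -0.35 and passed (adjusted p = 0.0185).

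Fosl2, which encodes Fra-2, a Fos-related protein without the strong activation domain of Fos, passed in none of the 7 tests. It ranged from 480 to 2290 in dark (median 1608, mean 1431 ± 658), from 937 to 1299 in light (median 1008, mean 1079 ± 154), from 847 to 1833 in psilocybin-dark (median 1533, mean 1481 ± 346) and from 652 to 1407 in psilocybin-light (median 1142, mean 1082 ± 312). The groups overlapped, and the 2 lowest dark values, 480 and 844, were again those of libraries 6 and 1. The log2 fold change against dark was -0.41 in light (95% interval -0.96 to 0.15, edgeR adjusted p = 0.259), 0.05 in psilocybin-dark (95% interval -0.50 to 0.60, adjusted p = 0.914) and -0.40 in psilocybin-light (95% interval -0.95 to 0.15, adjusted p = 0.249).

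The Fosl2 result turned on those dark libraries. Without them it was lower in light (-0.74, edgeR adjusted p = 0.00483) and in psilocybin-light (-0.73, adjusted p = 0.00458), and leaving out dark library 6 alone was enough for both (-0.58 and -0.57). With libraries 1 and 6 as the only dark libraries, it was higher in psilocybin-dark (1.16, adjusted p = 0.00412) and psilocybin-light (0.72, adjusted p = 0.0472). Without all 4 libraries of high cerebellar markers, Fosl2 was also lower in psilocybin-light than in psilocybin-dark (-0.56, adjusted p = 0.0179) and higher in psilocybin-dark than in light (0.63, adjusted p = 0.0311). The part of cerebellar tissue in these values was not tested beyond these fits and the fit with the marker level in the model, in which Fosl2 was -0.70 in psilocybin-light against dark (adjusted p = 0.0292).

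**Figure D2:**
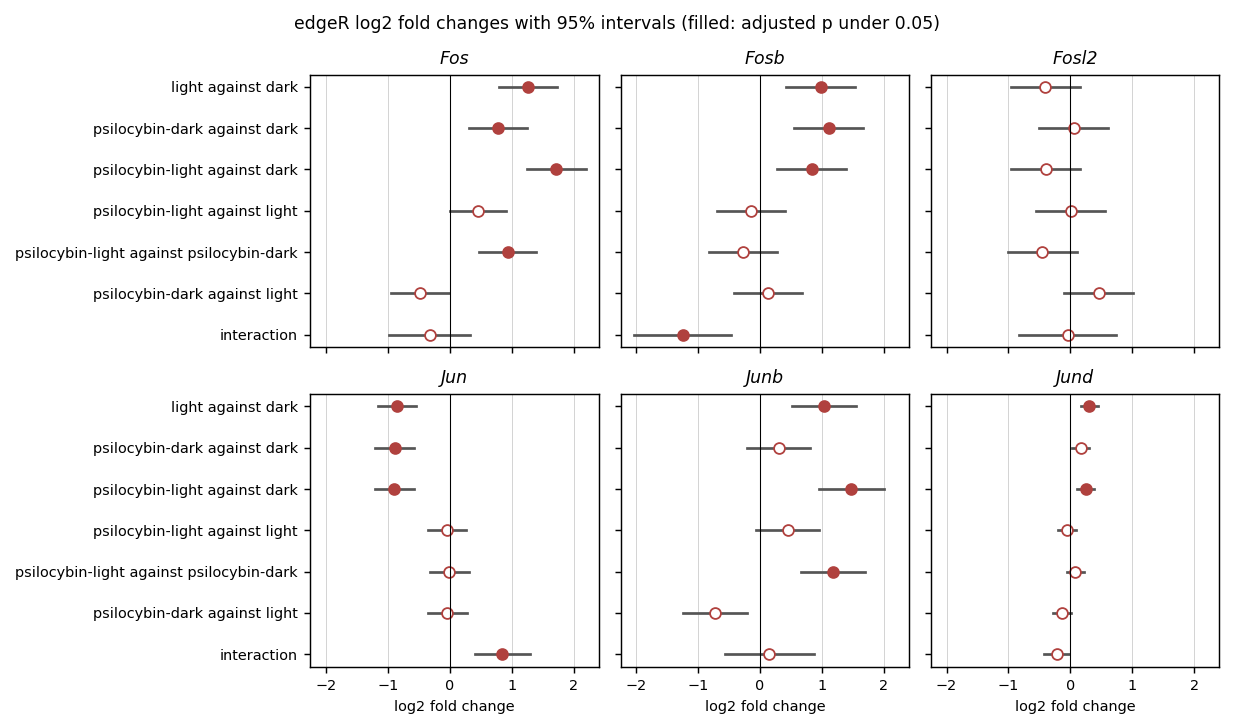
Log2 fold changes (x axis) of the 6 genes in the 6 comparisons between groups and the interaction (y axis), with bars for 95% intervals and filled points for an edgeR adjusted p under 0.05. Fos and Fosb lie to the right and Jun to the left of 0 in the 3 comparisons against dark, and the Fosl2 intervals all include 0.

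Jun, the partner of Fos in the classic AP-1 dimer, was the only one of the 6 members that passed as lower than dark in the fit to all 24 libraries. The dark libraries ranged from 1394 to 2468 with a median of 1895 (mean 1953 ± 437). The other groups had nearly the same level: 808 to 1375 in light with a median of 1060 (mean 1083 ± 204), 840 to 1338 in psilocybin-dark with a median of 1038 (mean 1054 ± 223) and 869 to 1236 in psilocybin-light with a median of 1059 (mean 1051 ± 121). All 18 libraries of these groups lay below all 6 dark libraries, where the libraries of 10.0% (light), 5.58% (psilocybin-dark) and 15.8% (psilocybin-light) of all genes were separated from dark. The log2 fold change against dark was -0.85 in light (SE 0.151, edgeR adjusted p = 0.000202), -0.89 in psilocybin-dark (SE 0.152, adjusted p = 0.00022) and -0.89 in psilocybin-light (SE 0.151, adjusted p = 8.46e-05).

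Among the 3 other groups no Jun difference passed, with log2 differences of -0.04 (95% interval -0.36 to 0.27) for psilocybin-light against light, -0.004 (-0.32 to 0.31) for psilocybin-light against psilocybin-dark and -0.04 (-0.35 to 0.27) for psilocybin-dark against light. Accordingly, the interaction was 0.85 (SE 0.214, edgeR adjusted p = 0.0172): with PBS, Jun was lower in light than in dark, and under psilocybin no such difference passed. The interaction remained past the threshold in all 24 fits without 1 library (adjusted p up to 0.0359), but with libraries 1 and 6 as the only dark libraries it was 0.54 and did not pass (adjusted p = 0.0893). Without the 4 libraries of high cerebellar markers the fold change in light was -1.07 and the interaction 1.16 (edgeR adjusted p = 4.95e-06 and 0.000279).

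Jun was also the gene whose groups were split in the same way as the hippocampal markers. With their level in the model, the Jun fold changes against dark were -0.46, -0.51 and -0.43 for light, psilocybin-dark and psilocybin-light (edgeR adjusted p = 0.271, 0.471 and 0.353), and the interaction was 0.53 (adjusted p = 0.431). Junos, the antisense RNA that overlaps Jun, was not used further, because strand was not given.

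**Figure D3:**
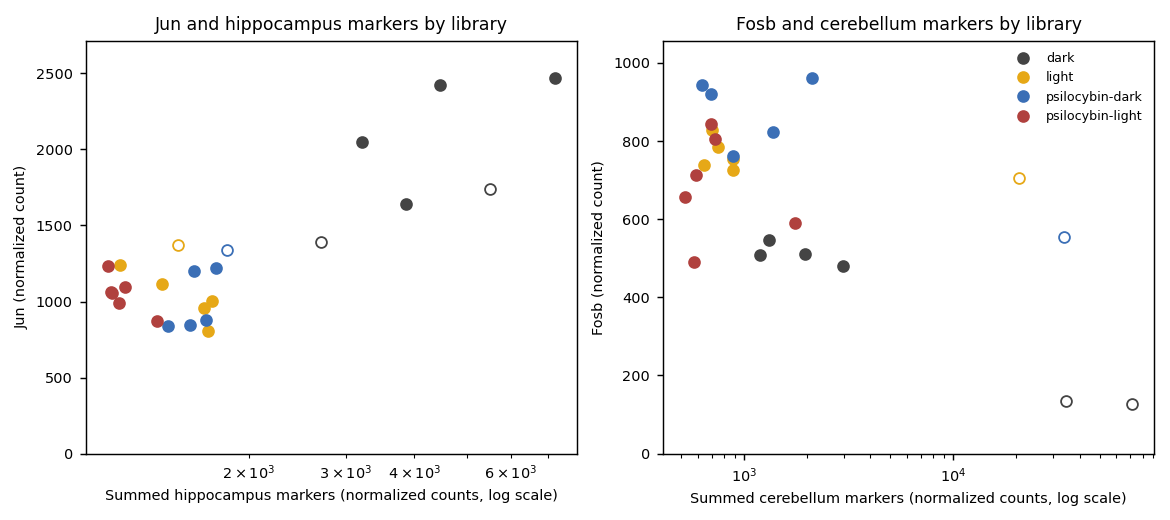
Left, Jun (y axis, normalized count) against the summed hippocampal markers (x axis, log scale) in each library. Right, Fosb against the summed cerebellar markers. Colours are groups and open points the 4 libraries with the highest cerebellar sums; in the left panel the dark libraries lie apart from the rest, and in the right panel dark libraries 1 and 6 lie lowest.

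Junb, an early-response Jun protein that is in general a weaker activator than Jun, was the most variable gene across groups on the Jun side. The dark libraries ranged from 459 to 1398 with a median of 1050 (mean 967 ± 449), with the 2 lowest values, 459 and 462, in libraries 6 and 1. The psilocybin-dark libraries, at 859 to 1433 with a median of 1170 (mean 1187 ± 201), overlapped the dark libraries. The light libraries ranged from 1512 to 2736 with a median of 1862 (mean 1970 ± 422), and the psilocybin-light libraries from 1891 to 3957 with a median of 2518 (mean 2687 ± 720). Every library of both groups placed in light lay above every library of both groups kept in the dark. Between psilocybin-dark and light such separation was seen for 2.21% of all genes.

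The log2 fold change of Junb against dark was 1.03 in light (SE 0.249, edgeR adjusted p = 0.00308) and 1.48 in psilocybin-light (SE 0.251, adjusted p = 8.78e-05), and 0.30 in psilocybin-dark (95% interval -0.22 to 0.81, adjusted p = 0.414). Between the psilocybin groups it was 1.18 (SE 0.249, adjusted p = 0.00594), the largest difference of any member that did not involve the dark libraries. The psilocybin-dark level was 0.73 below that in light (log2 difference -0.73, 95% interval -1.24 to -0.22), which did not pass in the fit to all 24 libraries (adjusted p = 0.14). It did pass when those 2 groups were fitted alone (edgeR adjusted p = 0.0365), without dark libraries 1 and 6 (0.0216) and without dark libraries 2 to 5 (0.0261). It also passed without the 4 libraries of high cerebellar markers (0.0385), with the cerebellar markers in the model (0.0489) and with 1 surrogate variable (0.0155). In these fits 254 to 852 of all genes passed, against 66 in the fit to all 24 libraries. It did not pass with the hippocampal markers in the model (0.137), with filterByExpr (0.152), without a filter (0.301) or with DESeq2 size factors (0.145). Nor did it pass with DESeq2 itself (DESeq2 adjusted p = 0.0773). Psilocybin-light was 0.45 above light (95% interval -0.06 to 0.96, adjusted p = 0.598). Without dark libraries 1 and 6 the fold change in light against dark was 0.70 (edgeR adjusted p = 0.00676).

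Jund, the Jun protein found at steady levels in resting cells, varied least. It ranged from 1548 to 1981 in dark (median 1828, mean 1804 ± 146), from 1965 to 2489 in light (median 2251, mean 2225 ± 217), from 1801 to 2282 in psilocybin-dark (median 2007, mean 2028 ± 162) and from 1927 to 2258 in psilocybin-light (median 2174, mean 2143 ± 122). Dark overlapped each other group, with 5 of 6 light, 4 of 6 psilocybin-dark and 5 of 6 psilocybin-light libraries above all dark ones. The log2 fold change against dark was 0.30 in light (SE 0.067, edgeR adjusted p = 0.00147), 0.25 in psilocybin-light (SE 0.067, adjusted p = 0.0053) and 0.17 in psilocybin-dark (95% interval 0.03 to 0.31, adjusted p = 0.0684). None of the differences among the other 3 groups passed, and the largest, psilocybin-dark against light, was -0.13 (95% interval -0.27 to 0.004).

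**Figure D4:**
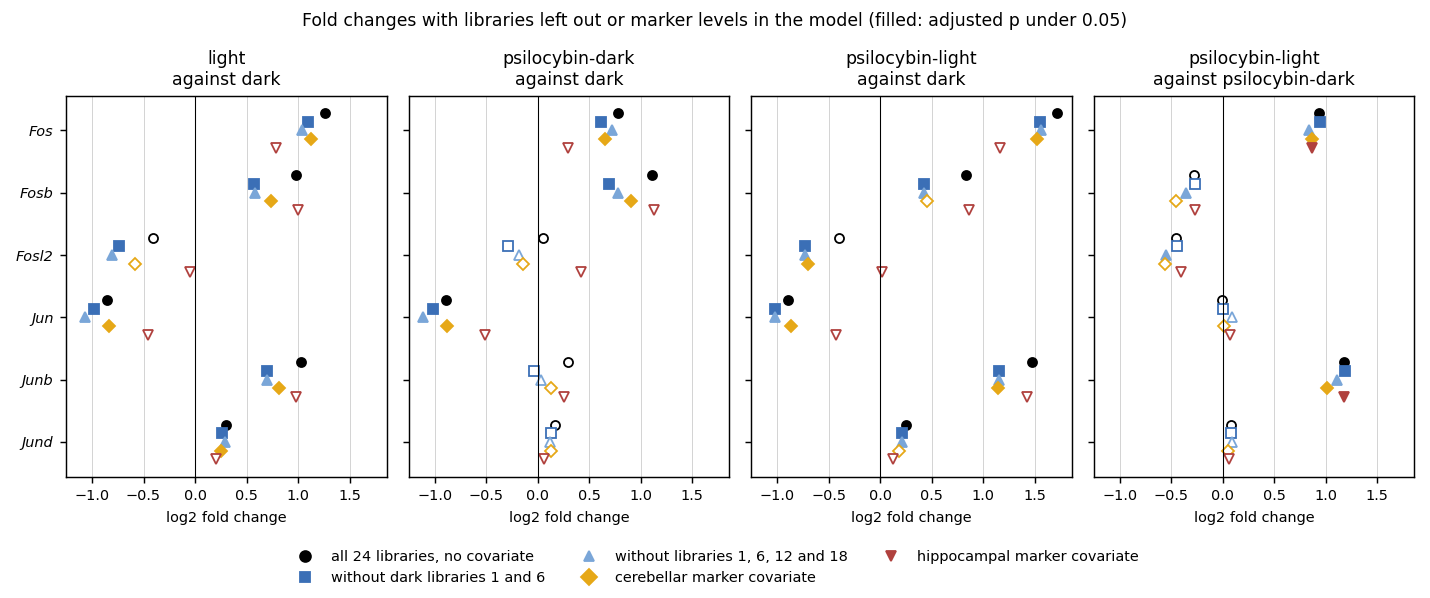
Log2 fold changes (x axis) of the 6 genes (y axis) in 4 comparisons, with all libraries, without dark libraries 1 and 6, without the 4 libraries of high cerebellar markers, and with cerebellar or hippocampal marker levels in the model; filled symbols have an edgeR adjusted p under 0.05. With the hippocampal markers in the model no symbol is filled in the 3 panels against dark, while Fos and Junb stay filled in the comparison of the psilocybin groups.

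Levels between genes were compared as normalized counts per kilobase of the canonical transcript. All exons together are longer than this transcript for some genes, at 6243 against 3782 bases for Fosb and 10397 against 6975 for Fosl2. With the strand setting not given, the overlaps with neighbours, longest for Jund, may also shift these levels. On this scale Jund was the most abundant member in the dark, light and psilocybin-dark groups, with means of 1082 ± 87.7, 1335 ± 130 and 1216 ± 97.3 (SD, n = 6). In psilocybin-light, Junb had a mean of 1486 ± 398 per kilobase against 1286 ± 72.9 for Jund, a gap within the spread of Junb. The 3 Fos genes together had means per kilobase of 460 ± 175 in dark, 720 ± 106 in light, 693 ± 141 in psilocybin-dark and 838 ± 209 in psilocybin-light. The 3 Jun genes together had 2229 ± 436, 2763 ± 268, 2203 ± 166 and 3101 ± 440 in the same order. Jun-side transcripts were thus the more abundant in every library, with ratios to the Fos side from 2.69 (lowest psilocybin-dark library) to 7.35 (highest dark library).

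The make-up of the Jun side differed between groups more than its sum. Junb made up 14.2 to 29.7% of the Jun side in dark, 34.8 to 47.4% in light, 22.8 to 32.5% in psilocybin-dark and 40.6 to 56.0% in psilocybin-light. Of the whole family, Fos side included, Jun made up 20.2 to 27.8% in the dark libraries. It made up 7.3 to 13.0% in light, 8.7 to 16.7% in psilocybin-dark and 7.6 to 8.9% in psilocybin-light, so that dark stood apart from the rest. The ratio of Junb to Jun per kilobase was 0.838 ± 0.259 in dark (0.468 to 1.12), 2.08 ± 0.599 in psilocybin-dark (1.13 to 2.73), 3.34 ± 1.09 in light (2.15 to 5.04) and 4.45 ± 0.709 in psilocybin-light (3.84 to 5.64). No dark library overlapped any library of the other groups in this ratio, and psilocybin-dark did not overlap psilocybin-light. On the Fos side, Fos made up 33.6 to 42.6% in psilocybin-dark and 49.8 to 69.9% in psilocybin-light, without overlap, and the ratio of Fos to Fosb had a median of 1.15 and 2.63 in these groups. In dark, the Fos share ranged from 26.8 to 59.4%, the highest in library 6, where Fosb and Fosl2 were lowest. These shares and ratios are descriptions of the counts given above and were not tested.

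**Figure D5:**
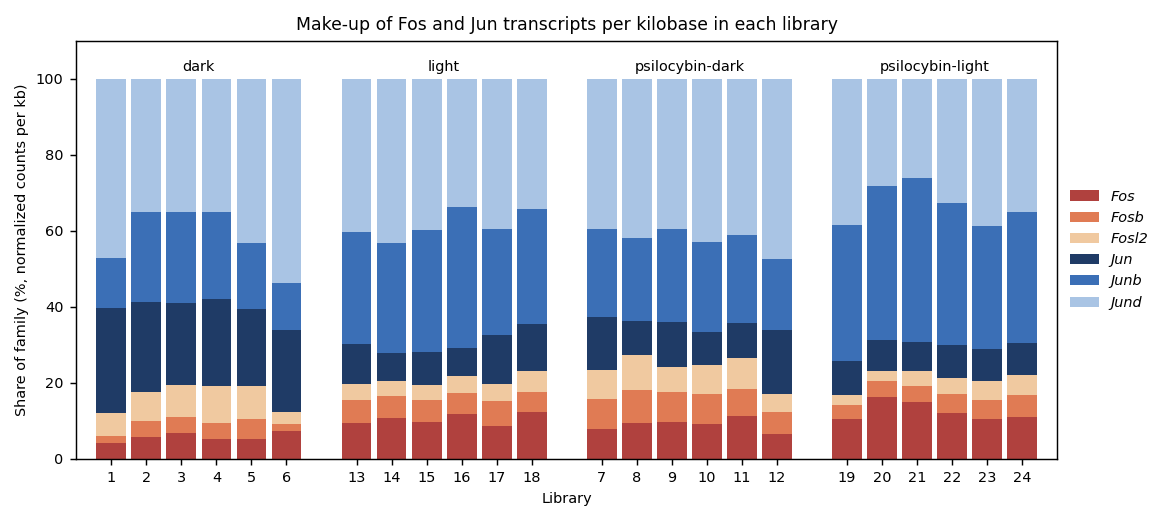
Share of each gene in the summed normalized counts per kilobase of the 6 genes (y axis, %), in each library (x axis) by group. The dark blue Jun segment is 20.2 to 27.8% in the dark libraries and at most 16.7% elsewhere, and the Junb segment is widest in psilocybin-light, at 32.3 to 43.1%.

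Over the 24 libraries Fos and Junb varied together, with Pearson's r of 0.92 on log2 normalized counts, and 0.79 after the group means were removed. Fosb and Fosl2 had an r of 0.53 overall and 0.88 within groups, to which the low values of dark libraries 1 and 6 belong, and 0.81 within the 3 groups other than dark. Fos and Jun had an r of -0.58 overall and 0.08 within groups. The genes outside the family with the most similar pattern, by r over the 24 libraries among genes averaging at least 50 counts, were the phosphatase gene Dusp1 (0.94) and the nuclear receptor gene Nr4a1 (0.94) for Fos, and B230216N24Rik (0.97) and Nptx2 (0.96) for Fosb. For Fosl2 they were Nr4a3 (0.93) and Fndc3a (0.86), and for Jun Tnfaip8l3 (0.95) and Dpyd (0.94). For Junb they were Ccn1 (0.92) and Egr2 (0.92), and for Jund Ubtf (0.88) and Ubald1 (0.86). These correlations share library, depth and group means and are given as descriptions.

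Other bZIP proteins that can pair with Fos or Jun were tested for 12 of 16 genes listed. Fosl1, which encodes Fra-1 and is the remaining Fos gene, had 0 to 5 raw counts per library, and with Batf, Batf2 and Batf3 had too few counts to be tested. In light against dark, 4 of the 12 were higher and none lower (median log2 fold change 0.10, against -0.01 over all genes). Among these were Jdp2 (1.09), a repressor that dimerizes with Jun proteins, Maff (0.73) and Atf4 (0.20). In psilocybin-dark against dark 5 of 12 were higher, and in psilocybin-light against dark 4. The shares of all genes higher than in dark were 15.4% in light, 11.9% in psilocybin-dark and 17.4% in psilocybin-light. Jdp2 ranged from 415 to 618 normalized counts in dark and from 633 to 1158 in the other groups, without overlap. Such separation from dark was seen for 10.0% (light), 5.58% (psilocybin-dark) and 15.8% (psilocybin-light) of all genes.

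Of the 18 transcription factors and coactivators that act on the Fos and Jun promoters, 2 were higher and 2 lower in light than in dark (median 0.13, against -0.01 over all genes), no larger a share than the 15.4% higher and 16.5% lower of all genes. Crem (0.64), a CREB relative, and Mef2c (0.97) were higher, and the coactivator genes Crtc3 (-0.29) and Ep300 (-0.21) were lower. Srf, Creb1 and Elk1, whose proteins bind early gene promoters, were at 0.30, -0.14 and -0.07 and did not pass. In psilocybin-light against light 1 of 18 passed, the coactivator gene Crebbp (-0.56), where 0.608% of all genes passed. In psilocybin-dark against dark 4 were higher and 1 lower, where 11.9% of all genes were higher and 12.8% lower. In psilocybin-light against dark 3 were higher and 3 lower, where 17.4% of all genes were higher and 21.0% lower.

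Of the 18 kinases and phosphatases upstream of Fos and Jun, 4 were higher and 3 lower in light than in dark (median -0.03), a share near the 15.4% higher and 16.5% lower of all genes. Rps6ka5, a kinase of CREB and histone H3 that acts on early genes, was lower (-0.67), whereas Dusp6 (0.99) and Dusp1 (0.78), phosphatases that inactivate MAP kinases, Mapk10 (0.34), a neuronal Jun kinase, and Rps6ka3 (0.39) were higher. In psilocybin-dark against dark 6 were higher and 4 lower, where 11.9% of all genes were higher and 12.8% lower. In psilocybin-light against dark 7 were higher and 5 lower, where 17.4% of all genes were higher and 21.0% lower. Between the psilocybin groups 3 were higher in psilocybin-light and 1 lower, where 2.60% of all genes were higher and 3.78% lower. Dusp1 was among the higher (0.61).

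Of 8 genes for the turnover of Fos and Jun RNA and protein, 3 were higher in light than in dark: Fbxw7 (0.36) and Cop1 (0.23), parts of ubiquitin ligases that target Jun, and Zfp36 (0.47), which destabilizes AU-rich early transcripts. The share of all genes higher in light was 15.4%. In psilocybin-dark against dark 2 were higher and 1 lower, where 11.9% of all genes were higher and 12.8% lower. None passed in psilocybin-light against dark, where 38.4% of all genes passed and the median was 0.001 (all genes -0.02).

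Among 11 genes described as Fos or FosB targets in neurons, 5 were higher and 1 lower in light than in dark (median 0.52), 7 and 1 in psilocybin-dark (median 0.75) and 5 and 1 in psilocybin-light (median 0.38), against medians between -0.02 and -0.01 over all genes. In the same order, 15.4%, 11.9% and 17.4% of all genes were higher and 16.5%, 12.8% and 21.0% lower. The opioid peptide precursor genes moved in opposite directions: Pdyn was higher in light (2.56), psilocybin-dark (2.34) and psilocybin-light (2.63), and Penk lower (-1.57, -1.57 and -1.65). Nptx2, whose protein clusters AMPA receptors, was higher in all 3 (1.32, 1.62 and 1.37). Bdnf was higher in light (0.53) and in psilocybin-dark (1.05), and lower in psilocybin-light than in psilocybin-dark (-0.67).

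Among 11 other early-response transcription factors, 7 were higher in light than in dark (median 1.08), 7 in psilocybin-dark (median 0.78) and 8 in psilocybin-light (median 1.38), and 1 was lower, in psilocybin-light. Over all genes, 15.4%, 11.9% and 17.4% were higher in these comparisons, and 21.0% were lower in psilocybin-light. Npas4 (2.37), Egr1 (1.88), Nr4a1 (1.87), Egr3 (1.81) and Ier2 (1.08) had the smallest adjusted p-values in light against dark. In psilocybin-light against psilocybin-dark, in which Fos and Junb passed, 3 of the 11 were higher, namely Npas4 (0.95), Ier2 (0.83) and Btg2 (1.00). The share of all genes higher there was 2.60%. In psilocybin-light against light and in psilocybin-dark against light none of the 11 passed. The interaction was negative and passed for 3 of them, Npas4 (-1.42), Egr1 (-1.48) and Egr3 (-1.66), as it did for Fosb and for 4.86% of all genes.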

How the data were processed

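RNA enriched by poly-A tail was sequenced by the authors, who trimmed reads with cutadapt, mapped them with STAR and counted them per gene with htseq-count, and the deposited values are raw counts. The methods name GRCm39 and the labels mm10. Tool versions, annotation release and strand setting are not given in the sources used here. The study's count table equalled the deposited counts for all 1457 genes compared, and its headings gave the groups. Genes whose highest count reached 30 were kept (14464) and fitted in edgeR 4.0.16 (R 4.3.3) with TMM scaling and a quasi-likelihood model of 4 groups over 24 libraries. P-values are two-sided, with Benjamini-Hochberg adjustment over all of these genes. The interaction is the light effect under psilocybin minus the light effect under PBS. Normalized counts are counts per 16058300, the mean effective library size, and log2 values used a prior count of 2. Totals of 13552516 to 17906994 counts and a biological coefficient of variation of 0.182 set the precision. The fit was tested on simulated data.

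All 6 members were named, with the 2 most correlated genes for each and up to 5 genes past the threshold per list; other genes were chosen after their values were seen. Alternatives were DESeq2 1.42.0 and its size factors, other filters (filterByExpr or none), fits to the compared groups alone, sva 3.50.0, an adjusted p under 0.01, the labels' light exposure, marker levels as covariates and libraries left out. Added after seeing the data were fits without dark libraries 2 to 5 and without the 4 libraries of high cerebellar markers. The members and lists were chosen with earlier results of these data known.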

Additional observations from a re-analysis of the deposited data

Results flagged for a closer look

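The light effect differed between PBS and psilocybin for 2 of the 6 genes by the interaction test (edgeR, adjusted p under 0.05), which 8.75% of all genes passed. For Fosb the interaction was -1.251 on the log2 scale (adjusted p = 0.0429). The Fosb light effect was 0.98 under PBS and -0.27 under psilocybin, the latter not past the threshold. This call was lost in 15 of 24 fits with 1 library left out and in the fit without a filter (edgeR adjusted p = 0.0634). For Jun the interaction was 0.847 (adjusted p = 0.0172), with light effects of -0.85 under PBS and -0.004 under psilocybin. Both use the dark libraries, whose hippocampal marker sums lie above those of all others. Neither passed with the mean log2 level of these markers in the model, on which dark library 6 did not lie above all others. The Fosb interaction was then -1.27 (SE 0.553), about as large as before (SE 0.381), and that of Jun was smaller, at 0.53 (SE 0.248, against 0.214). Dixon's ratio, which looks for 1 library apart from the other 5 of its group, singled out none for the 6 genes, and it cannot single out a pair such as the 2 low Fosb values in dark.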

How the results depend on the processing

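The light exposure given by the sample labels only renames the groups, and every comparison of light with dark then changed sign. Under the labels, light against dark was -1.262 for Fos, -0.976 for Fosb, 0.851 for Jun, -1.028 for Junb and -0.303 for Jund. Psilocybin-light against psilocybin-dark was -0.936 for Fos and -1.179 for Junb, and the interaction was 1.251 for Fosb and -0.847 for Jun. Psilocybin-dark against dark gave -0.145 for Fosb and 0 genes past the threshold, and psilocybin-light against light gave 1.106 for Fosb and 3 genes. Psilocybin-light against dark gave -0.48 for Fos, -0.73 for Junb, -0.134 for Jund and 0 genes, and psilocybin-dark against light gave 1.718 for Fos, 1.476 for Junb, 0.249 for Jund and 5 genes. Over all genes 88, 3575, 66 and 5551 passed in the last 4 comparisons, in the order given.

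With the hippocampal marker level in the model, 0 of the 6 genes passed in light, psilocybin-dark or psilocybin-light against dark and in the interaction, and over all genes the calls were 668, 0, 783 and 0. The Fosb and Junb fold changes in light (1.00 and 0.98) and the Fosb interaction (-1.27) stayed about as large and their standard errors grew, while those of Fos and Jun shrank. Psilocybin-dark against light had 1 gene past the threshold, Junb, with only the compared groups, with 1 surrogate variable, with the cerebellar marker level in the model, without dark libraries 1 and 6 and without dark libraries 2 to 5, and 2, Junb and Fosl2, without libraries 1, 6, 12 and 18. Over all genes 254, 727, 683, 688, 408 and 852 passed in these fits, in the same order, against 66 in the fit to all libraries. Without libraries 1, 6, 12 and 18, psilocybin-light against psilocybin-dark had 4 members past the threshold. There 2434 of all genes passed, against 923 in the fit to all libraries. Without dark libraries 2 to 5, psilocybin-dark against dark had 6 and the interaction 4, with Jun no longer among them (0.536, edgeR adjusted p = 0.0893). Over all genes 5915 and 4016 passed there, against 3575 and 1266 in the fit to all libraries. In that setting Fosl2 in psilocybin-light against dark was 0.72 and the Junb interaction was -0.912. At an adjusted p under 0.01, psilocybin-light against psilocybin-dark had 1 and the interaction 0, and without a filter the interaction had 1. Over all genes 332, 320 and 759 passed in these, in the same order. Leaving out 1 library at a time, the interaction had 1 to 2, where 834 to 2092 of all genes passed. Where the cause of such a change is not given by the setting itself, the cause was not tested. Over all genes, calls differed by more than 1.5 times between fits in several comparisons: psilocybin-dark against light had 66, against 405 with DESeq2, 254 with only the compared groups, 0 without a filter and 852 without libraries 1, 6, 12 and 18, and psilocybin-light against light had 88, against 191, 58, 22 and 331. Light against dark had 4611, against 3073 with only the compared groups.

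Of the values with 1 library left out, 989 stayed on their side of the threshold, and in the same direction where they passed. A further 15 lost the threshold, 4 gained it and 0 reversed. Of the other alternatives, 467 stayed in this sense, 31 lost the threshold, 23 gained it and 19 reversed. Direction was not required of values that passed in neither fit, and over all alternatives 70 of these changed sign. No paired analysis was possible because the sample labels name no litter or other pairing. By the methods littermates were placed in the groups at random, and litter was not modelled. Depth was not varied, and the 95% intervals give the precision reached with 6 libraries a group.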
